A study of Mus musculus with 12 samples.

Results

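The BCL2 family genes described here are 10 genes that set whether a B cell lives or dies: Bcl2, Bcl2l1, Mcl1, Bcl2a1b and Bcl2a1d on the survival side, Bak1 as a pore former, and Bid, Bcl2l11, Bbc3 and Pmaip1 as BH3-only death genes. They were taken by their GENCODE symbol from a table of read counts for 46078 genes, and each matched 1 gene. RNA was sequenced from splenic B cells of C57BL/6 mice aged 8 to 12 weeks. There were 4 groups of 3 libraries, namely marginal zone (MZ) B cells of VAVcre-Zbtb24 mice (CKO, genotype given as Zbtb24-/-), MZ B cells of VAVcre mice (Control, genotype given as WT), and follicular (FO) B cells of CKO and of Control mice. Cre from the Vav promoter acts in blood-forming cells and all their descendants, and CKO and Control mice both carry it. The 12 libraries bear the numbers of 6 mice, 3 of each genotype, and each number occurs once among MZ and once among FO libraries. MZ and FO cells were separated with a magnetic kit, so the groups are enriched and not single-cell sorted.

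BCL2 family proteins act at the outer membrane of mitochondria. Pro-survival members (BCL2, BCL-XL, MCL1, BCL-W and A1) hold the pore formers BAX and BAK in check, and BH3-only proteins such as BIM, BID, PUMA, NOXA and BMF bind the pro-survival members or trigger the pore formers directly. Once BAX or BAK opens the membrane, cytochrome c leaves and caspases are activated. In resting B cells survival signals through the B cell receptor and the BAFF receptor act in part on these proteins. FO B cells recirculate, whereas MZ B cells stay at the marginal sinus of the spleen in a pre-activated state and respond fast to blood-borne antigens.

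The libraries held 36340116 to 44629250 counts over genes. All 11 genes on a list of MZ markers passed the test as higher in MZ than in FO libraries of both genotypes, and of 7 FO markers 6 were lower in CKO and 7 in Control. Of all genes tested, 10.5% in CKO and 14.9% in Control mice passed as higher, and 7.78% and 13% as lower. The marker lists were chosen with earlier results of these data known, so these counts are no independent check of the cell types. Cr2, the complement receptor gene high in MZ cells, was at 3186 ± 713 CPM (counts scaled to a common library total) in MZ CKO, 3308 ± 220 in MZ Control, 1042 ± 99.3 in FO CKO and 843 ± 148 in FO Control libraries (SD, n = 3 each). Zbtb24 itself, the gene targeted, was at 43.4 ± 2.63 CPM in MZ CKO and 52.1 ± 2.75 in MZ Control libraries, and at 48.4 ± 1.57 in FO CKO and 61.4 ± 0.977 in FO Control libraries. Most of its reads therefore remained, and the counts per gene do not show which of its exons is deleted. Cdca7, known as a direct target of ZBTB24, was at 3.33 ± 1.82 CPM in MZ CKO and 36.4 ± 5.22 in MZ Control, and at 1.40 ± 1.101 in FO CKO and 32.6 ± 1.11 in FO Control libraries, which separates the genotypes as labelled.

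The sequence shows why the A1 genes need care. Mouse A1 is a cluster of near-identical genes on chromosome 9. The stretches just upstream of the annotated starts of Bcl2a1b and Bcl2a1d, the 2 members from that cluster, whose levels were both higher in MZ than in FO libraries, are shown with that of Bcl2a1a from RefSeq (GRCm38.p6), where capitals mark the bases that differ from Bcl2a1b.
Bcl2a1b chr9:89199023-89199164 (plus strand): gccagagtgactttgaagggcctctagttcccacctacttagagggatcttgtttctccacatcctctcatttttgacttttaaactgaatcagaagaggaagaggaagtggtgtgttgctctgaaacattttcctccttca
Bcl2a1d chr9:88731915-88732050 (minus strand): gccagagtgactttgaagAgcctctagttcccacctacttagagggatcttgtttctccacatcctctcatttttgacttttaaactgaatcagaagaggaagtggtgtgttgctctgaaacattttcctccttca
Bcl2a1a chr9:88956714-88956855 (plus strand): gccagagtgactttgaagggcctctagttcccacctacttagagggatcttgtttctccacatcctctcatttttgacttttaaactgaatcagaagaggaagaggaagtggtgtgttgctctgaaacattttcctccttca
Over 136 aligned bases Bcl2a1d has 1 mismatch to Bcl2a1b (99.3% identity) and lacks 6 bases of it, and Bcl2a1a matches Bcl2a1b over all 142 bases. The transcripts share sequence too, as 79.2% of the 50-base stretches of Bcl2a1b transcripts and 79.5% of those of Bcl2a1d also occur in transcripts of other genes, mainly of the same cluster. The split of reads between the A1 genes is therefore uncertain, and their sum is given beside them. Reads that matched several places, or overlapped several genes, count toward no gene. The A1 levels, their sum and their RPKM may therefore be too low, which was not tested. The exons of Bcl2a1b also overlap Gm29094 on the same strand by 401 bases, and Gm29094 was at 0 CPM in all groups. The stretch upstream of Bid is shown because Bid has the largest difference of the members below.
Bid chr6:120916854-120917074 (minus strand): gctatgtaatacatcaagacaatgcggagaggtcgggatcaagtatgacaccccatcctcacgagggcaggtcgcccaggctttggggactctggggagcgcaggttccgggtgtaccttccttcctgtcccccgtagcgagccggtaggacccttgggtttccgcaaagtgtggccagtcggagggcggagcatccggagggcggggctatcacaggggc
A kappa B consensus motif, searched on both strands in 300-base windows around the start, occurred in 1480 of 32841 windows of all genes (4.51%). These letters were absent from the windows of Bid, Bcl2a1b and Bcl2a1d and present in 1 of 3 windows each of Bcl2l1 and Bbc3. Windows were at hand for 9 of the 10 members.

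Per kilobase of exon, one survival gene dominated. The mean level of Mcl1 over the 12 libraries was 233.5 RPKM (CPM per kilobase of exon), place 166 from the top among 18446 genes. MCL1 is a short-lived protein that B cells need at every stage. Over the same 12 libraries Bid averaged 25.9 RPKM, Bak1 15.9, Bcl2 15.6 and Bcl2a1d 12.2. Bcl2l11 was at 6.40 RPKM, Bbc3 at 4.02, Bcl2a1b at 3.94, Pmaip1 at 3.37 and Bcl2l1 at 1.44. The order below Mcl1 was not the same in all groups. Bid came next in MZ cells, at 38.2 RPKM in CKO and 38.4 in Control, but in FO cells, at 14.1 in CKO and 12.8 in Control, it lay below Bcl2 (15.7 and 15.9) and Bak1 (14.6 and 14.1). Bak1 had higher group means than Bcl2 in MZ cells and lower ones in FO cells, and Bcl2a1d lay above Bcl2 in MZ Control libraries, at 16.1 against 15.6 RPKM. Pmaip1 was above Bcl2a1b in both FO groups and above Bbc3 in FO CKO libraries, and Bbc3 and Bcl2a1b also changed places between groups. Among 7 pro-survival genes (Bcl2, Bcl2l1, Bcl2l2, Mcl1, Bcl2a1a, Bcl2a1b and Bcl2a1d), Mcl1 held 84.6% ± 0.765 of their summed RPKM in MZ CKO, 84.0% ± 1.02 in MZ Control, 88.0% ± 0.0503 in FO CKO and 87.9% ± 0.300 in FO Control libraries (SD, n = 3 each). If A1 reads were lost in the counting, these shares of Mcl1 are too high. BAX, the other pore former, is not among the 10 members. Its gene was at 35.9 RPKM.

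**Figure D1:**
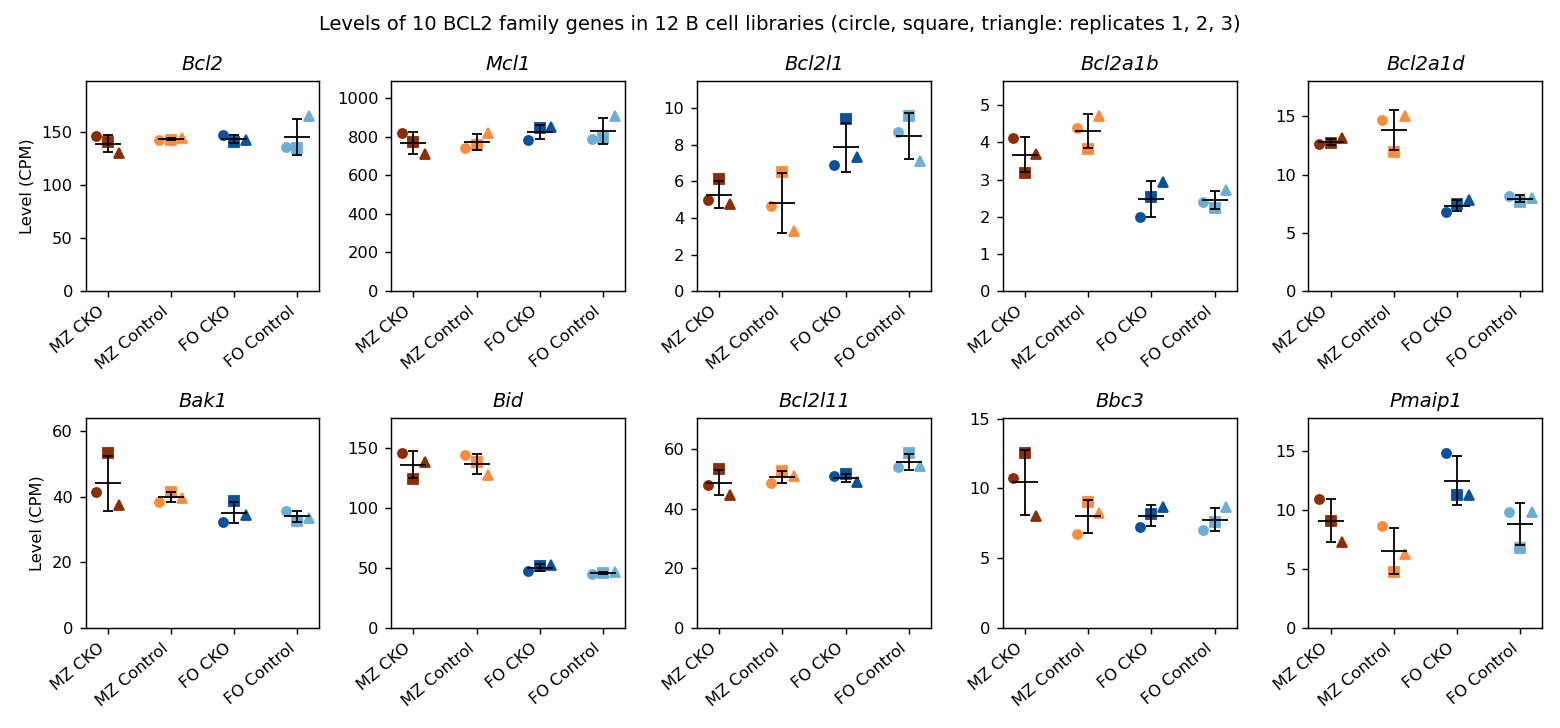
Levels (CPM, y axis from 0) of the 10 genes in each of the 12 libraries, by group on the x axis; circles, squares and triangles are replicates 1, 2 and 3, and bars are group means. Bid separates the MZ from the FO libraries most, with 123.6 to 145.7 CPM in MZ CKO libraries against 47.2 to 52.0 in FO CKO libraries, while Bcl2 and Mcl1 overlap between all groups.

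The first question is how MZ B cells differ from FO B cells within one genotype. In Control mice, 4 of the 10 genes were higher in MZ cells (Bid, Bcl2a1b, Bcl2a1d and Bak1), 1 was lower (Bcl2l1), and 5 did not pass. Over all genes, 27.9% of 17830 tested passed in either direction, 14.9% as higher and 13% as lower, so that 5 of 10 stands in a background where such differences are common. The median log2 fold change of the 10 genes was 0.011, against 0.007 for all genes. A gene passed at an adjusted p under 0.05 (edgeR quasi-likelihood test, Benjamini-Hochberg over all genes). With the mouse number as a block, which uses the pairing of MZ and FO libraries, 43.8% of all genes passed, 22.4% as higher and 21.3% as lower, and 6 of the 10 members did, 4 higher and 2 lower. A blocked fit also estimates a level for each mouse from the same few libraries. Here and below, its p-values therefore rest largely on spread estimated over many genes, and their size does not measure replication over mice. In bulk RNA, fewer cells of a type and less RNA per cell cannot be told apart.

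Bid encodes the BH3-only protein that links death receptors to mitochondria once caspase-8 cuts it. In the 3 replicates it was at 146, 124 and 138 CPM in MZ CKO libraries and at 144, 138 and 127 CPM in MZ Control libraries. The FO CKO libraries held 47.2, 51.1 and 52.0 CPM and the FO Control libraries 45.02, 45.4 and 46.2 CPM. The lowest MZ library, at 123.6 CPM, stood above the highest FO library, at 52.0 CPM, whatever the genotype. The MZ over FO fold was 2.72 in CKO mice (log2 1.45 ± 0.081 SE, adjusted p = 1.05e-05) and 2.99 in Control mice (log2 1.58 ± 0.069, adjusted p = 5.07e-08). Leaving out any one library or mouse kept the log2 difference between 1.34 and 1.53 in CKO and between 1.53 and 1.64 in Control mice. The last exon of Bid overlaps the tail of Bcl2l13 on the opposite strand by 628 bases (gene at chromosome 6, 120891930 to 120916853, GRCm38, minus strand), and the strand setting of the counting is one of the details not given in the sources used here. Bcl2l13 was at 53.7 ± 4.70 CPM in MZ CKO, 56.4 ± 3.51 in MZ Control, 54.5 ± 3.74 in FO CKO and 53.5 ± 1.51 in FO Control libraries (SD, n = 3 each), with a log2 MZ over FO difference of -0.013 in CKO and 0.078 in Control mice that did not pass in either genotype.

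The A1 genes encode a short-lived pro-survival protein induced by NF-kappa B in B cells, and Bcl2a1d was higher in MZ cells of both genotypes. Bcl2a1d was at 12.6, 12.7 and 13.1 CPM in MZ CKO and at 14.7, 11.9 and 15.03 in MZ Control libraries, against 6.79, 7.45 and 7.78 in FO CKO and 8.18, 7.63 and 7.97 in FO Control libraries. All 6 MZ libraries exceeded all 6 FO libraries. The fold was 1.75 in both genotypes (log2 0.812 ± 0.124, adjusted p = 0.00197 in CKO; log2 0.806 ± 0.123, adjusted p = 0.000512 in Control). Bcl2a1b had fewer reads, with 4.12, 3.18 and 3.70 CPM in MZ CKO and 4.38, 3.81 and 4.71 CPM in MZ Control libraries. Its FO levels were 1.99, 2.52 and 2.93 CPM in CKO and 2.39, 2.25 and 2.71 CPM in Control libraries, below every MZ library of either genotype. The log2 difference of Bcl2a1b was 0.573 ± 0.209 in CKO mice, which did not pass (adjusted p = 0.0918), and 0.811 ± 0.177 in Control mice, which did (adjusted p = 0.00517). With the mouse block Bcl2a1b also passed in CKO mice (log2 0.582, adjusted p = 0.0129), but not once replicate 1 of the mice was left out of that fit (adjusted p = 0.179). When the reads of the A1 genes were summed, MZ libraries were higher in both genotypes, with a log2 difference of 0.681 in CKO (adjusted p = 0.00475) and 0.755 in Control mice (adjusted p = 0.000315). The third A1 gene with reads, Bcl2a1a, had 0.639 ± 0.0459 CPM in MZ CKO, 0.785 ± 0.135 in MZ Control, 0.916 ± 0.351 in FO CKO and 0.850 ± 0.246 in FO Control libraries and did not pass (adjusted p = 0.367 in CKO and 0.826 in Control mice).

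Bcl2l1, whose main product BCL-XL protects immature and activated lymphocytes, went the other way. The gene lies on chromosome 2 from 152780668 to 152831728 (GRCm38, minus strand). It was at 4.96, 6.13 and 4.75 CPM in MZ CKO and 4.64, 6.54 and 3.30 in MZ Control libraries, against 6.88, 9.41 and 7.36 in FO CKO and 8.73, 9.59 and 7.12 in FO Control libraries. No MZ library reached the lowest FO library, which was at 6.88 CPM. The log2 difference was -0.570 ± 0.181 in CKO mice, which just missed (adjusted p = 0.0586), and -0.809 ± 0.233 in Control mice (adjusted p = 0.0279). With the mouse block the gene passed as lower in both, at an adjusted p of 0.00106 in CKO and 2.88e-09 in Control mice. Without the block, the Control call ended when MZ replicate 1 (adjusted p = 0.112), MZ replicate 3 (0.0617), FO replicate 1 (0.0827) or FO replicate 2 (0.0895) was left out.

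Bak1, the gene of the pore former BAK, showed a small difference. It was at 41.4, 53.4 and 37.5 CPM in MZ CKO and 38.4, 41.4 and 39.7 in MZ Control libraries, against 32.3, 38.6 and 34.3 in FO CKO and 35.7, 32.6 and 33.6 in FO Control libraries. The groups did not overlap in Control mice and did in CKO mice. The log2 difference was 0.338 ± 0.135 in CKO mice, which did not pass (adjusted p = 0.128), and 0.230 ± 0.072 in Control mice (adjusted p = 0.0340). The Control call ended in DESeq2 (adjusted p = 0.0501), with no filter on low counts (0.0591), in a fit over all 12 libraries (0.153), and when any library other than FO replicate 1 was left out (0.05004 to 0.126). With the mouse block Bak1 passed as higher in both genotypes (adjusted p = 0.00129 in CKO and 0.00248 in Control mice), but not without mouse replicate 2 of either (0.0536 in CKO and 0.102 in Control). The Bak1 exons (chromosome 17, 27019810 to 27029009, GRCm38, minus strand) overlap Ggnbp1 on the opposite strand by 614 bases. Ggnbp1 was itself higher in MZ cells, with 17.8 ± 0.995 CPM in MZ CKO and 9.57 ± 0.247 in FO CKO libraries (log2 0.899), and 15.3 ± 2.12 in MZ Control and 8.87 ± 0.630 in FO Control libraries (log2 0.787; SD, n = 3 each). Its part in the Bak1 counts was not tested.

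Pmaip1, a p53 target that encodes the MCL1-binding protein NOXA, was at 10.9, 9.08 and 7.26 CPM in MZ CKO and 8.58, 4.69 and 6.23 in MZ Control libraries. The FO libraries held 14.8, 11.2 and 11.3 CPM in CKO and 9.85, 6.74 and 9.85 CPM in Control mice. Within each mouse number the MZ library was below the FO library, but MZ and FO groups overlapped in Control mice. The log2 MZ over FO difference was -0.449 ± 0.182 in CKO (adjusted p = 0.128) and -0.441 ± 0.234 in Control mice (adjusted p = 0.208), and neither passed. With the mouse block it passed as lower in both, at log2 -0.453 in CKO (adjusted p = 0.00193) and -0.454 in Control mice (adjusted p = 0.000499). It still did when each mouse in turn was left out (adjusted p = 0.00238 to 0.0348 in CKO and 0.00366 to 0.0292 in Control). Few libraries remain in those fits, so their p-values rest largely on spread estimated over many genes and not on spread between mice.

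The remaining 4 genes, Bcl2, Mcl1, Bcl2l11 and Bbc3, did not pass in either genotype in the test without the block. Bcl2, the founding survival gene, was at 146, 141 and 130.4 CPM in MZ CKO and 142, 143 and 144 in MZ Control libraries, against 147, 141 and 142.5 in FO CKO and 135, 135 and 165 in FO Control libraries. The log2 difference was -0.036 ± 0.067 in CKO and -0.021 ± 0.082 in Control mice. Mcl1 ranged from 709 to 818 CPM in the MZ CKO and from 741 to 818 in the MZ Control libraries, against 782 to 849 in FO CKO and 790.1 to 906.5 in FO Control libraries. Its log2 difference was -0.097 ± 0.085 in CKO and -0.103 ± 0.077 in Control mice. Bcl2l11 encodes BIM, the BH3-only protein that removes self-reactive lymphocytes, and held 48.1, 53.2 and 44.8 CPM in MZ CKO and 48.6, 52.6 and 51.1 in MZ Control libraries, against 50.9, 51.5 and 48.9 in FO CKO and 54.2, 58.8 and 54.2 in FO Control libraries. The log2 difference of Bcl2l11 was -0.044 ± 0.081 in CKO (adjusted p = 0.770) and -0.135 ± 0.067 in Control mice (adjusted p = 0.169), where the groups did not overlap. Blocked, it was at an adjusted p of 0.645 in CKO and 0.0635 in Control mice, and in Control it passed once mouse replicate 3 was left out (0.0494). Bbc3, the gene of the p53-induced BH3-only protein PUMA, was at 10.7, 12.6 and 7.98 CPM in MZ CKO and 6.69, 8.99 and 8.26 in MZ Control libraries, against 7.19, 8.18 and 8.67 in FO CKO and 7.01, 7.60 and 8.63 in FO Control libraries. Its log2 difference was 0.386 ± 0.182 in CKO (adjusted p = 0.186) and 0.043 ± 0.149 in Control mice (adjusted p = 0.874). Bbc3 passed as higher in CKO mice with the mouse block (adjusted p = 0.0325), and no longer without mouse replicate 1 (0.126) or 2 (0.291).

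**Figure D2:**
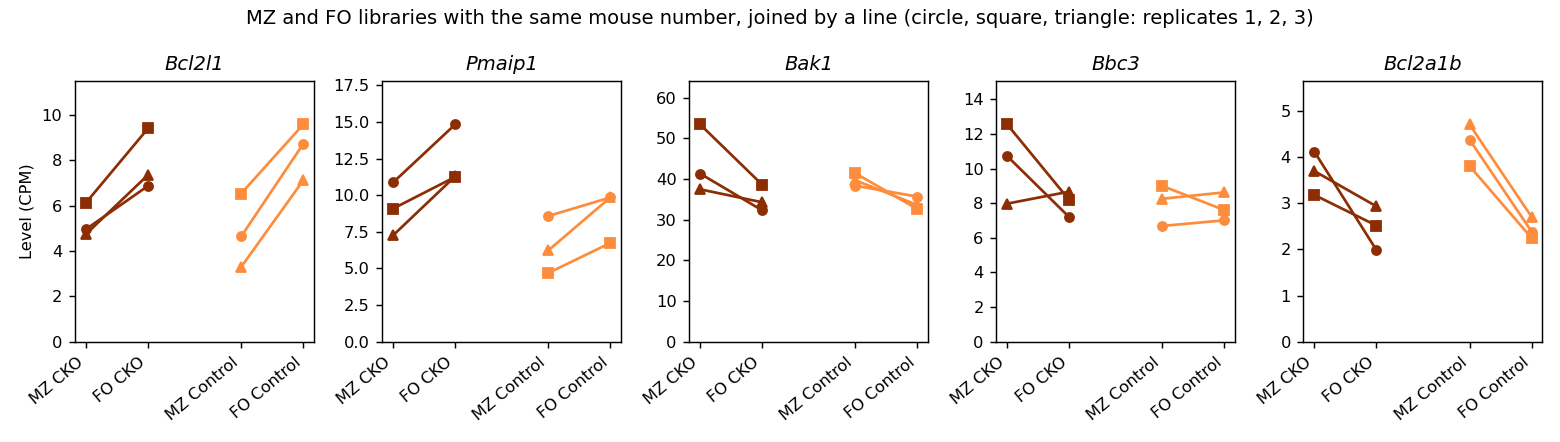
Levels (CPM, y axes from 0) of 5 genes in MZ and FO libraries that share a mouse number, joined by a line, for CKO mice on the left and Control mice on the right of each panel. In all 6 mice Bcl2l1 and Pmaip1 were lower, and Bak1 and Bcl2a1b higher, in the MZ than in the FO library, while the lines of Bbc3 run both ways.

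In CKO mice, then, 2 of the 10 genes were higher in MZ cells (Bid and Bcl2a1d) and none was lower in the test without the block, against 18.3% of 17712 genes in either direction, 10.5% higher and 7.78% lower. At an unadjusted p under 0.05 there were 6 of 10 members and 5498 of 17712 genes. The median log2 fold change of the members was 0.151, against -0.008 for all genes. Blocked, 7 of 10 passed, against 35.8% of all genes (19.2% higher and 16.6% lower), with Bid, both A1 genes, Bak1 and Bbc3 higher and Bcl2l1 and Pmaip1 lower. That a gene passed in Control and not in CKO mice does not show a difference between genotypes, and the test of that difference is given below.

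**Figure D3:**
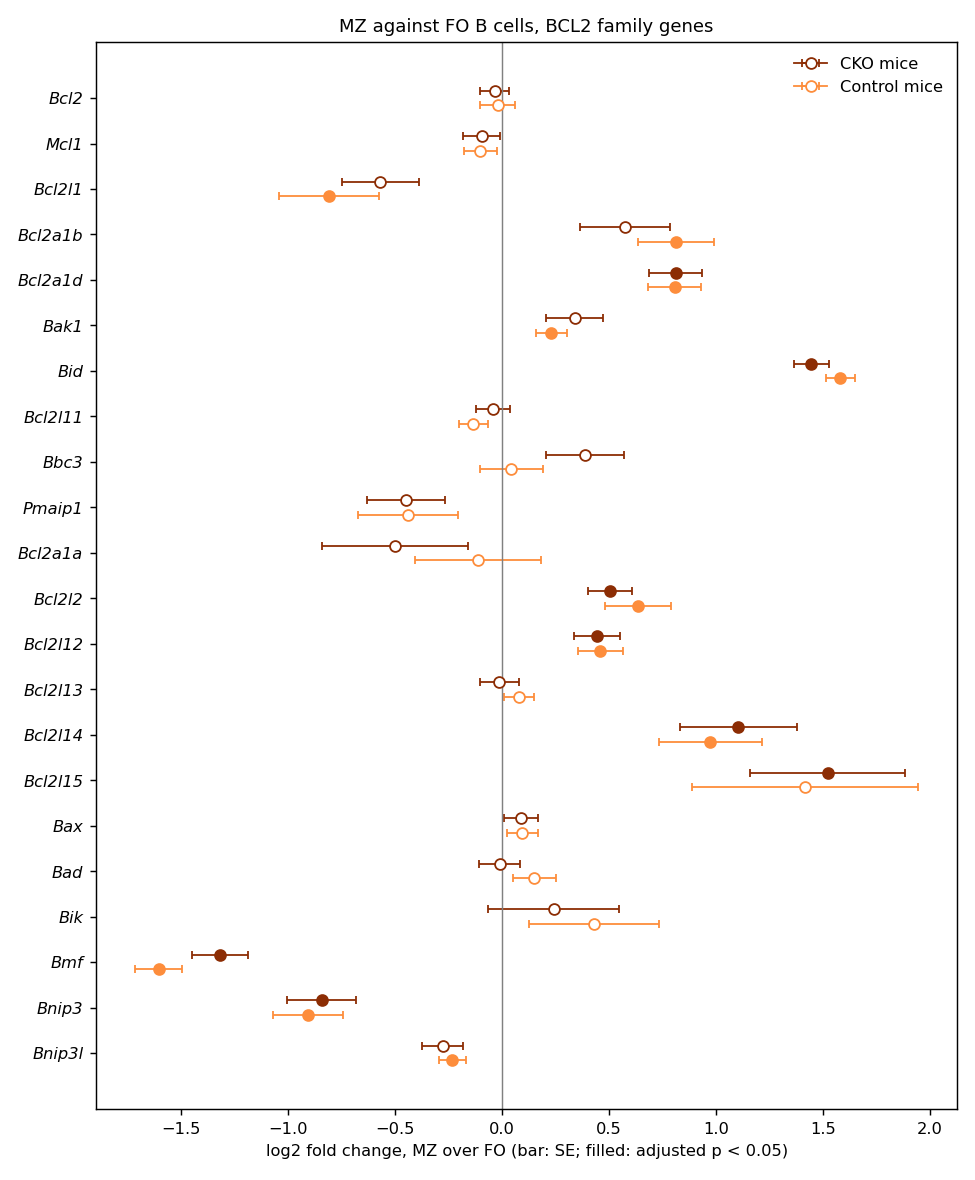
Log2 MZ over FO difference (x axis) with its approximate SE (bars) for the 10 genes and further BCL2 family genes, in CKO and in Control mice. Of the 10 members, Bid lies farthest to the right in both genotypes (1.45 and 1.58) and Bcl2l1 farthest to the left (-0.570 and -0.809). Of the further family genes, Bcl2l15 lies farthest to the right (1.522 and 1.415) and Bmf farthest to the left (-1.32 and -1.61).

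T cell markers also moved between the cell types. Their summed level over 9 genes was 182 to 295 CPM in MZ CKO and 218 to 326 in MZ Control libraries, against 266 to 394 in FO CKO and 389 to 449 in FO Control libraries; 1 of 9 was lower in CKO and 6 of 9 in Control mice without the block, 9 of 9 and 6 of 9 with it, and none was at 0. T cells express Bcl2, Mcl1, Bcl2l1 and Bcl2l11 as well, and the part of T cell RNA in the values above was not tested. Of 12 immediate early genes, which are induced by stimulation and by cell handling, 5 were lower in MZ cells in CKO and 4 in Control mice without the block; with it, 7 were lower in CKO, and 7 were lower and 1 (Fosb, log2 0.63) higher in Control mice. They had a summed level of 838 to 1094 CPM in MZ CKO and 891 to 1087 in MZ Control libraries against 1267 to 1411 in FO CKO and 1200 to 1588 in FO Control libraries. Their part in the values of the members was not tested either.

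Some markers of other blood cells also passed between MZ and FO cells, more of them in the blocked test. The 10 neutrophil markers summed to 78.8 to 264 CPM in MZ CKO and 61.5 to 158.5 in MZ Control libraries, against 137.5 to 432 in FO CKO and 93.6 to 221 in FO Control libraries; blocked, 10 were lower in CKO and 7 in Control mice, and 0 in either without the block. For the 5 NK cell markers the sums were 58.4 to 69.1 CPM in MZ CKO and 49.6 to 75.9 in MZ Control libraries, against 71.9 to 91.3 in FO CKO and 47.3 to 80.4 in FO Control libraries. Blocked, 4 of the 5 were lower and 1 (Prf1) was higher in each genotype; without the block, 2 were lower and 1 higher in CKO and none passed in Control mice. The 8 macrophage and monocyte markers summed to 213 to 331 CPM in MZ CKO and 178 to 342 in MZ Control libraries, against 281.5 to 504 in FO CKO and 214 to 427 in FO Control libraries, and the 7 dendritic cell markers to 57.0 to 82.9 and 68.8 to 81.5 in the same MZ groups, against 71.8 to 108 and 74.8 to 95.2 in the same FO groups. Blocked, 3 macrophage markers were lower in each genotype and 1 (Cd5l) was higher in Control mice, and 3 dendritic cell markers were lower in each genotype. Unblocked, 1 macrophage marker was lower in CKO and 1 dendritic cell marker in Control mice. For scale, 7.78% of all genes passed as lower in CKO and 13% in Control mice without the block, and 16.6% and 21.3% with it. The part of these cells in the values of the members was not tested.

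The other BCL2 family genes place these differences among their relatives. Of 16 listed, 12 had enough reads to be tested. In CKO mice 4 were higher and 2 lower in MZ cells, and in Control mice 3 were higher and 3 lower. Of all genes tested, 18.3% passed in CKO and 27.9% in Control mice. The median log2 of the further family genes was 0.038 in CKO and 0.122 in Control mice. Bmf, which encodes a BH3-only protein tethered to myosin motors, showed the largest difference in the opposite direction to Bid. It was at 38.4, 42.0 and 31.0 CPM in MZ CKO and 32.6, 27.2 and 36.2 in MZ Control libraries, against 101.6, 97.1 and 81.1 in FO CKO and 103, 86.8 and 102 in FO Control libraries. No MZ library came near the FO range, and the MZ level was 0.400 times the FO level in CKO mice (log2 -1.32 ± 0.130, adjusted p = 0.000314) and 0.328 times in Control mice (log2 -1.61 ± 0.110, adjusted p = 4.59e-06).

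Bcl2l2, the gene of the survival protein BCL-W, was higher in MZ cells, at 18.7 ± 0.975 CPM in MZ CKO and 13.2 ± 0.685 in FO CKO libraries (log2 0.504, adjusted p = 0.00861) and at 17.5 ± 3.32 in MZ Control and 11.3 ± 1.73 in FO Control libraries (log2 0.634, adjusted p = 0.0117; SD, n = 3 each). Bcl2l12 had a log2 difference of 0.442 in CKO (adjusted p = 0.0199) and 0.459 in Control mice (adjusted p = 0.00676). Bcl2l14 stood at about 2 CPM in MZ cells, with 2.12 ± 0.520 CPM in MZ CKO, 1.92 ± 0.346 in MZ Control, 0.991 ± 0.224 in FO CKO and 0.976 ± 0.192 in FO Control libraries. Its log2 difference was 1.103 in CKO (adjusted p = 0.0220) and 0.973 in Control mice (adjusted p = 0.0109). Bcl2l15 was rarer still, with 88 reads in MZ CKO and 32 in FO CKO libraries in all, and passed in CKO mice (log2 1.52, adjusted p = 0.0184) but not in Control mice (log2 1.42, adjusted p = 0.0719), unless the mouse was a block (0.0022). Bnip3, which encodes a mitophagy protein with a BH3-like stretch, was lower in MZ cells, at 4.70 ± 0.472 CPM in MZ CKO and 8.48 ± 1.004 in FO CKO libraries (log2 -0.844, adjusted p = 0.00639) and at 4.99 ± 1.03 in MZ Control and 9.39 ± 0.431 in FO Control libraries (log2 -0.910, adjusted p = 0.00157). Its relative Bnip3l was at log2 -0.279 in CKO (adjusted p = 0.0730, and 0.00327 with the mouse block) and -0.233 in Control mice (adjusted p = 0.0166). Bax did not pass, with a log2 difference of 0.088 ± 0.081 in CKO and 0.093 ± 0.073 in Control mice. Bad and Bik did not pass either, and Bcl2a1c, Bcl2l10, Bok and Hrk were at or near 0 in all libraries and were not tested. Several of these calls were lost in the unblocked test when 1 library was left out. In CKO mice that of Bcl2l12 ended without MZ replicate 2 (adjusted p = 0.0502) or 3 (0.0701) or FO replicate 1 (0.0916) or 2 (0.0534), that of Bcl2l14 without MZ replicate 1 (0.0935) or 2 (0.0587) or FO replicate 2 (0.0575) or 3 (0.0818), and that of Bcl2l15 without MZ replicate 1 (0.0650) or FO replicate 1 (0.0732) or 2 (0.0571). In Control mice Bcl2l2 was lost without MZ replicate 1 (0.05005) or FO replicate 3 (0.05075), Bcl2l14 without MZ replicate 1 (0.0504), and Bnip3l without MZ replicate 3 (0.0771) or FO replicate 2 (0.0781).

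Set against each other per kilobase, the BH3-only genes traded places. Over 8 such genes (Bid, Bmf, Bcl2l11, Bad, Bbc3, Pmaip1, Bik and Hrk), Bid made up 57.7% ± 3.81 of the summed RPKM in MZ CKO, 59.9% ± 2.07 in MZ Control, 26.6% ± 2.04 in FO CKO and 24.9% ± 0.688 in FO Control libraries (SD, n = 3 each). Bmf made up 10.7% ± 1.52 in MZ CKO, 9.52% ± 1.49 in MZ Control, 33.3% ± 2.88 in FO CKO and 35.9% ± 2.37 in FO Control libraries. Bid was thus the most abundant BH3-only transcript in MZ cells and Bmf in FO cells, with no overlap between MZ and FO libraries for either share. The sum of the 8 genes was 66.2 ± 3.60 RPKM in MZ CKO and 64.0 ± 1.99 in MZ Control, against 53.2 ± 1.63 in FO CKO and 51.5 ± 1.56 in FO Control libraries. The summed RPKM of the 7 pro-survival genes was 265 ± 16.7 in MZ CKO and 269 ± 12.7 in MZ Control, against 274 ± 12.1 in FO CKO and 276 ± 21.4 in FO Control libraries, and these ranges overlapped.

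**Figure D4:**
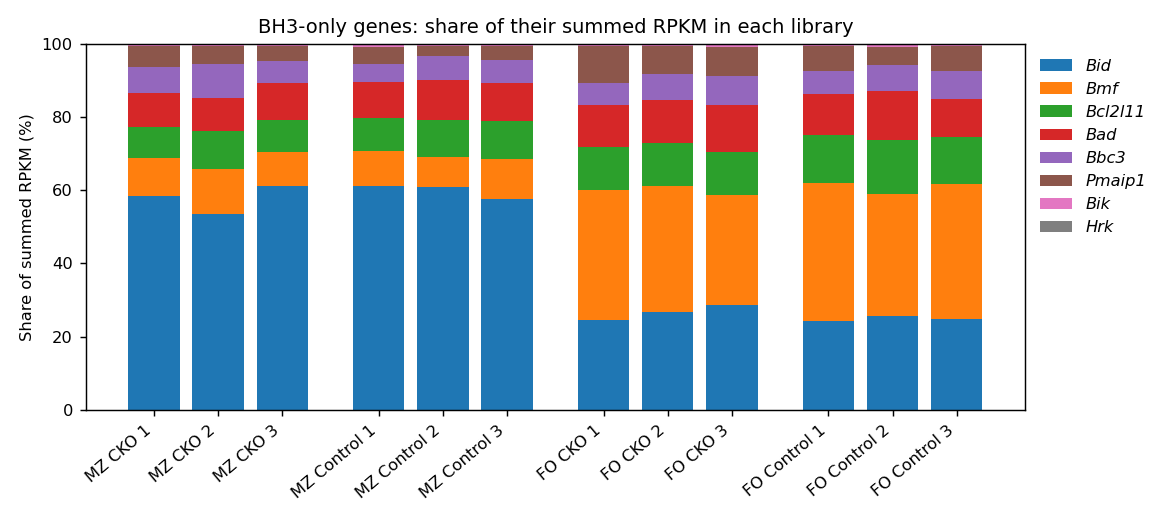
Share of the summed RPKM of 8 BH3-only genes (y axis, percent, 0 to 100) in each of the 12 libraries, stacked by gene. The Bid segment takes 53.6% to 61.3% in MZ libraries and 24.4% to 28.5% in FO libraries, and the Bmf segment 8.12% to 12.3% in MZ and 30.1% to 37.6% in FO libraries.

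The genes whose pattern over the 12 libraries was most like that of Bid were Akr7a5, Mzb1 and Rsu1 among 13507 candidates. Their log2 CPM, centred on each gene's mean, differed from that of Bid by a root mean square of 0.090, 0.093 and 0.110. Mzb1, an endoplasmic reticulum protein named for MZ and B1 B cells and one of the MZ markers, was at 342 ± 37.6 CPM in MZ CKO, 325 ± 11.3 in MZ Control, 126 ± 14.1 in FO CKO and 106 ± 3.76 in FO Control libraries (SD, n = 3 each). For Bcl2a1b the nearest genes were Ikbip (0.114), St3gal6 (0.126) and Gramd1c (0.130). These are likenesses of level over libraries of 4 groups.

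Downstream of the BCL2 family stand the apoptosome, the caspases and their inhibitors, a list of 26 genes that were all tested. In CKO mice 4 were higher and 3 lower in MZ cells, and in Control mice 6 were higher and 4 lower, with a median log2 of 0.121 in CKO and 0 in Control mice. In the blocked fit these counts were 8 higher and 5 lower in CKO and 9 higher and 5 lower in Control mice. Of all genes tested, 18.3% passed in CKO and 27.9% in Control mice without the block, and 35.8% and 43.8% with it. The largest differences in Control mice were those of Naip2, a sensor of bacterial proteins in inflammasomes (log2 0.923 in CKO, adjusted p = 0.0165; 0.834 in Control, adjusted p = 0.000115), and Casp6, an executioner caspase (0.617 in CKO, adjusted p = 0.00481; 0.498 in Control, adjusted p = 0.00123). Casp9, the initiator caspase that the apoptosome activates, was at 58.5 ± 5.31 CPM in MZ CKO and 38.0 ± 0.853 in FO CKO libraries, and at 54.1 ± 2.96 in MZ Control and 39.8 ± 4.40 in FO Control libraries (log2 0.631 in CKO, adjusted p = 0.000962; 0.442 in Control, adjusted p = 0.00266). Endog, a mitochondrial nuclease, did not pass in CKO mice (log2 0.385, adjusted p = 0.216, and 0.0179 with the mouse block) and passed in Control mice (0.442, adjusted p = 0.0326); the Control call ended in a fit over all 12 libraries (0.0680) and without any library but FO replicate 1 (0.0600 to 0.124). Lower in MZ cells were Birc3, which encodes the inhibitor cIAP2 (log2 -0.397 in CKO, -0.460 in Control), and Cflar, which encodes the caspase-8 inhibitor c-FLIP (-0.402 in both genotypes).

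Of 23 listed regulators of BCL2 family genes and proteins 22 were tested. In CKO mice 3 were higher and 5 lower in MZ cells, and in Control mice 2 were higher and 7 lower, with a median log2 of -0.054 in CKO and -0.171 in Control mice. In the blocked fit there were 5 higher and 7 lower in CKO and 4 higher and 12 lower in Control mice. The shares of all genes that passed were again 18.3% in CKO and 27.9% in Control mice without the block, and 35.8% and 43.8% with it. Bcl6, the repressor of germinal centre B cells, was at 33.8 ± 0.822 CPM in MZ CKO and 94.5 ± 4.78 in FO CKO libraries, and at 35.0 ± 4.74 in MZ Control and 101 ± 12.4 in FO Control libraries (log2 -1.47 in CKO, adjusted p = 7.62e-06; -1.53 in Control, adjusted p = 1.76e-05). Myc, a growth regulator that sensitises cells to death, was at 143 ± 21.6 CPM in MZ CKO and 64.7 ± 3.33 in FO CKO libraries, and at 124 ± 11.2 in MZ Control and 56.7 ± 4.50 in FO Control libraries (log2 1.15 in CKO, adjusted p = 0.000145; 1.13 in Control, adjusted p = 2.30e-06). Tnfrsf13c, the gene of the BAFF receptor, was lower in MZ cells (log2 -0.364 in CKO, -0.485 in Control), as were Foxo1, a transcription factor held back by survival signalling (-0.318 in CKO, -0.423 in Control), and the NF-kappa B subunit gene Rel (-0.326 in CKO, -0.344 in Control). The kinase gene Pim1 was higher (0.438 in CKO, 0.392 in Control). Each of these passed in both genotypes.

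The second question is whether loss of Zbtb24 moved the BCL2 family. None of the 10 genes passed in FO cells, where 0.09% of 17777 genes did (0.0563% higher and 0.0338% lower), and none passed in MZ cells, where 0.0793% of 17658 genes did (0.0566% higher and 0.0227% lower; edgeR quasi-likelihood test). DESeq2 and limma-voom also called none of the 10 in either cell type. At an unadjusted p under 0.05 there was 1 of 10 in FO cells, Pmaip1, and 0 of 10 in MZ cells, against 717 genes in FO and 512 in MZ cells over the whole table. The median log2 CKO over Control difference of the members was 0.007 in FO and -0.009 in MZ cells, against 0.006 and 0 for all genes.

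Pmaip1 gave the largest difference of the 10 in both cell types. In FO cells it was at 14.8, 11.2 and 11.3 CPM in CKO libraries and 9.85, 6.74 and 9.85 CPM in Control libraries. All 3 CKO libraries were above all 3 Control libraries, for a fold of 1.42 (log2 0.503 ± 0.176, unadjusted p = 0.0173 and adjusted p = 0.9995 in edgeR). The exact permutation test gave p = 0.1, the smallest that 3 libraries against 3 allow. In MZ cells CKO libraries held 10.9, 9.08 and 7.26 CPM and Control libraries 8.58, 4.69 and 6.23 CPM, which overlap (log2 0.483 ± 0.231, unadjusted p = 0.0622). The lowest adjusted p of any member in any genotype comparison, over all the alternatives tried, was 0.104, for Pmaip1 in FO cells with no filter on low counts.

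A further pair of genes, Bid and Bcl2l11, had groups that did not overlap in FO cells. Such a separation has p = 0.1 in the exact permutation test. The share of all genes without overlap was not computed, so the number of such members cannot be set against a background. Bid was at 47.2 to 52.0 CPM in FO CKO and 45.02 to 46.2 CPM in FO Control libraries (log2 0.140 ± 0.066, unadjusted p = 0.0592), and Bcl2l11 at 48.9 to 51.5 CPM in FO CKO and 54.2 to 58.8 CPM in FO Control libraries (log2 -0.140 ± 0.066, unadjusted p = 0.0600). In MZ cells both overlapped between genotypes, with log2 -0.007 ± 0.084 for Bid and -0.061 ± 0.083 for Bcl2l11. Bbc3 in MZ cells was at 10.7, 12.6 and 7.98 CPM in CKO and 6.69, 8.99 and 8.26 CPM in Control libraries, where 1 CKO library lay within the Control range (log2 0.382 ± 0.187, unadjusted p = 0.0660). In FO cells Bbc3 differed by log2 0.051 ± 0.140.

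Bcl2 and Mcl1 were closest to equal between genotypes among the survival genes. In FO cells the log2 CKO over Control difference was -0.014 ± 0.082 for Bcl2, -0.005 ± 0.077 for Mcl1, -0.101 ± 0.168 for Bcl2l1, 0.020 ± 0.200 for Bcl2a1b and -0.108 ± 0.126 for Bcl2a1d. In MZ cells it was -0.041 ± 0.071 for Bcl2, -0.011 ± 0.087 for Mcl1, 0.127 ± 0.243 for Bcl2l1, -0.229 ± 0.193 for Bcl2a1b and -0.113 ± 0.127 for Bcl2a1d. Bak1 differed by 0.049 ± 0.085 in FO and 0.145 ± 0.119 in MZ cells. The errors of the less abundant Bcl2l1 and Bcl2a1b, with 301 to 1044 reads per group of 3 libraries, are more than 2 times those of Bcl2 and Mcl1. A difference of a given size was therefore less detectable for them.

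**Figure D5:**
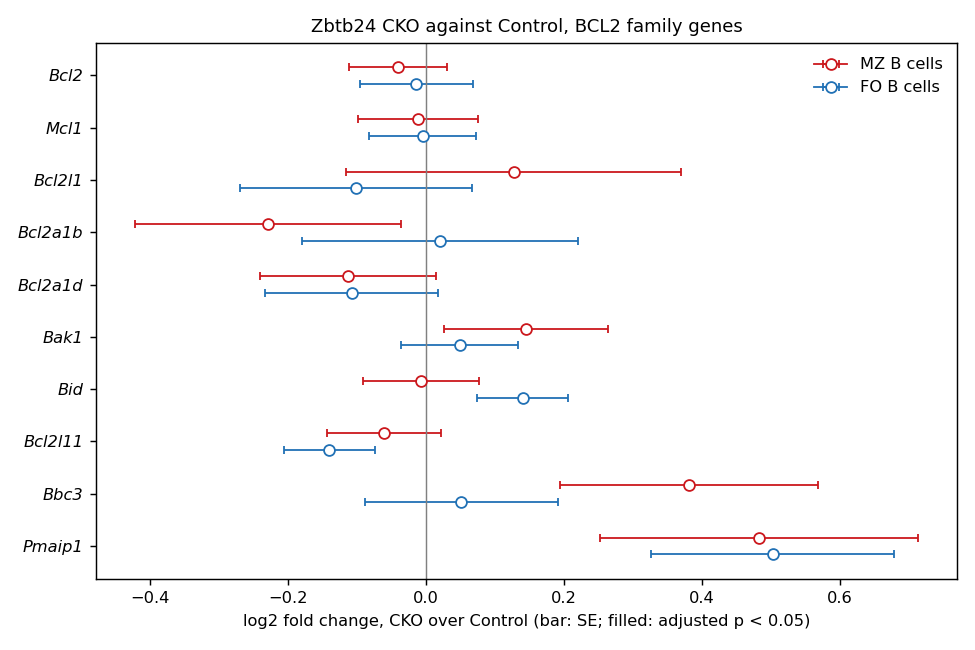
Log2 CKO over Control difference (x axis) with its approximate SE (bars) for the 10 genes, in MZ and in FO cells. Pmaip1 lies farthest to the right in both (0.483 and 0.503), and none passed the test over all genes.

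Among the other lists, 0 of 12 further BCL2 family genes, 0 of 26 apoptosome, caspase and inhibitor genes and 0 of 22 regulators passed between genotypes in either cell type (edgeR); at an unadjusted p under 0.05 there were 0, 2 and 2 in FO and none in MZ cells. Neutrophil markers lay higher in CKO libraries, without passing. Their summed level over 10 genes was 137.5, 432 and 217 CPM in FO CKO and 93.6, 221 and 145 CPM in FO Control libraries, and 78.8, 264 and 124 CPM in MZ CKO and 61.5, 158.5 and 74.1 CPM in MZ Control libraries, with a median log2 difference of 0.854 in FO and 0.557 in MZ cells. None of these 10 markers passed in edgeR, 1 in FO and 0 in MZ cells had an unadjusted p under 0.05, none was at 0, and their part in the values of Pmaip1 and the other members was not tested.

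The last comparison asks whether the genotype difference itself differs between MZ and FO cells, which is also whether the MZ over FO difference depends on genotype. None of the 10 members passed, nor did any of 18546 genes (0%; edgeR quasi-likelihood test over 12 libraries), with 0 of 10 members and 238 genes at an unadjusted p under 0.05, and DESeq2 and limma-voom called 0 genes. The largest values among the members were 0.336 ± 0.240 for Bbc3 (unadjusted p = 0.183), -0.246 ± 0.259 for Bcl2a1b (unadjusted p = 0.359), 0.232 ± 0.312 for Bcl2l1 (unadjusted p = 0.469) and -0.144 ± 0.101 for Bid (unadjusted p = 0.177), all as log2 of the effect in MZ over that in FO cells. A difference between genotypes in the MZ over FO contrast was therefore not detectable for Bak1, Bcl2l1 or Bcl2a1b. Without the block these genes passed that contrast in Control mice only, and with the mouse block in both genotypes. The test of the difference with the mouse block also called 0 of the 10 members.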

How the data were processed

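The deposited table holds whole-number read counts per Ensembl gene with no normalization, for 12 libraries. The submitters' processing notes name TopHat, HTSeq and DESeq2, without versions, and the build GRCm38. The annotation release and the strand setting of the counting are not given in the sources used here. Of 46078 genes, 45229 matched a symbol in GENCODE M21 and 33106 had a count. Another 5 entries of the counter name no gene; they hold 43.2% to 50.4% of all entries' counts per library (19.6% to 28.7% not unique, 3.29% to 5.55% ambiguous) and were left out of library sizes and tests.

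Tests ran on the counts in edgeR 4.0.16 under R 4.3.3 (filterByExpr, TMM, robust quasi-likelihood F test, two-sided, Benjamini-Hochberg over all genes tested, threshold 0.05), each comparison on its own 6 libraries and the difference on all 12. The approximate SE is the size of the log2 fold change over the root of F. CPM use TMM-scaled library sizes over 12 libraries, and RPKM divide these by GENCODE exon length. Sequences are from RefSeq promoter windows (GRCm38.p6). Alternatives were DESeq2 1.42.0, limma-voom 3.58.1, RLE size factors, no filter, no robust fit, a replicate block, all 12 libraries in 1 fit, summed A1 genes, and each library left out. Between genotypes a term for the series of mouse numbers was also tried, and 0 members passed with it in either cell type. The block with each mouse left out was added after seeing the data. P-values of all blocked fits, and more so with a mouse left out, rest largely on spread estimated over many genes. The scripts were tested on simulated data for the unblocked comparisons between groups, but not for the blocked fits or the difference. In part of these simulations the share of false calls lay above the nominal level, so calls near the threshold are less certain.

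That MZ and FO libraries of 1 number come from 1 mouse is read from the labels. Their deviations from the group means correlated at 0.456, 0.636 and 0.599 in CKO and 0.419, 0.603 and 0.513 in Control mice, and negatively for all other pairs. P-values between genotypes rest on the spread between 3 mice a group, moderated by spread estimated over all genes tested. Without a block, that spread also holds the replicate structure given below.

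The members and all lists were chosen with earlier results of these data known. Named are the members, further family genes that passed, up to 6 genes per pathway list with the largest Control MZ over FO difference, and for 2 members the 3 genes of most similar pattern.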

Additional observations from a re-analysis of the deposited data

How the results depend on the processing

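The MZ over FO directions of Bid, Bcl2a1b, Bcl2a1d, Bcl2l1, Bak1, Pmaip1 and Mcl1 held under every alternative tried, as did the calls of Bid and Bcl2a1d in both genotypes. With the replicate block on the mouse number, genes passing numbered 6333 in CKO (3243 without) and 7805 in Control mice (4977 without). CKO and Control libraries of the same replicate number bear different mouse numbers. Their deviations correlated at 0.098, 0.308 and 0.356 in FO and -0.062, 0.354 and 0.358 in MZ cells for replicates 1, 2 and 3. Replicate 2 against replicate 3 gave -0.261 and -0.33 in FO and -0.362 and -0.398 in MZ cells. Replicates 2 and 3 thus shared structure across genotypes, and its source was not tested. In FO cells 16 genes passed, against 39 in DESeq2, 140 with no filter and 25 with the replicate block. In MZ cells 14 passed, against 38 in DESeq2, 7 in limma-voom, 95 with no filter, 7 without the robust fit and 57 with the block. For the difference 0 passed, and 4 with the block (Mcoln3, Cdca7, Hist1h4a and Hist1h4j, named after their values were seen). Leaving out a library gave 11 to 31 genes in FO, 5 to 34 in MZ, and, with the mouse block included, 1898 to 5760 for MZ over FO in CKO mice. The cause was not tested.

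Values near 0 changed sign. Bcl2a1b between genotypes in FO was -0.001 in limma-voom and -0.062 summed. In the difference, Mcl1 was 0.017 with RLE and in DESeq2, Bcl2a1d was 0.016 with RLE, 0.019 in DESeq2 and limma-voom and 0.006 with the block, and Pmaip1 was 0.004 with RLE, 0.005 in DESeq2 and 0.007 in limma-voom. With 1 library left out, CKO over Control in FO ranged over -0.029 to 0.107 for Bak1, -0.017 to 0.137 for Bbc3, -0.063 to 0.09 for Bcl2, -0.11 to 0.16 for Bcl2a1b and -0.04 to 0.065 for Mcl1. In MZ it ranged over -0.012 to 0.259 for Bak1, -0.079 to 0.012 for Bcl2, -0.079 to 0.412 for Bcl2l1, -0.124 to 0.006 for Bcl2l11, -0.062 to 0.061 for Bid and -0.059 to 0.053 for Mcl1. The difference ranged over -0.061 to 0.204 for Bak1, -0.122 to 0.038 for Bcl2, -0.092 to 0.06 for Bcl2a1d, -0.066 to 0.052 for Mcl1 and -0.197 to 0.235 for Pmaip1. MZ over FO ranged over -0.083 to 0.008 for Bcl2 and -0.113 to 0.013 for Bcl2l11 in CKO mice, and over -0.071 to 0.081 for Bcl2 and -0.062 to 0.157 for Bbc3 in Control mice. Bcl2l1, Bcl2a1b and Pmaip1 had few reads and larger errors than Bcl2 and Mcl1. The parts of depth and of spread between mice in those errors were not tested.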
